A study of Homo sapiens with 6 samples.

Results

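Day 6 endoderm was followed from G1 into S phase in 3 of the 6 libraries of the study: 1 labelled G1 (0 h), 1 labelled G1/S (3 h) and 1 labelled S (6 h). All 14686 measured regions were used, and 14650 of them had a read in at least 1 endoderm library. The cells were made at passage 51 from H9, a widely used cell line of human embryonic stem cells (hESCs), which had been kept on matrigel in medium conditioned by mouse embryonic fibroblasts. They spent 6 days in RPMI medium with Glutamax, antibiotics and activin A at 100 ng/ml, with serum (FBS) at 0% during the first 24 h, 0.2% on the second day and 2.0% afterwards, and 1 medium change on day 3. The labels of the 3 endoderm libraries share this treatment and differ in phase and hour alone. They cannot show whether the libraries differed in other ways, and the depth did differ, as given below. The sources used here do not give how the cells were brought into phase, nor from which event the hours count. The other 3 libraries are of undifferentiated hESCs at 0, 2 and 3 h. With 1 library per phase no test was possible, and the values below are ordered and described.

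Definitive endoderm is the germ layer that forms gut, liver and pancreas, and activin A stands in for nodal, the signal that induces it in the embryo through SMAD proteins. Cells leave G1 when cyclin D and cyclin E kinases release E2F factors, which switch on the enzymes of DNA replication. Cells given a new stimulus also show a fast wave of immediate early genes, such as those of the FOS, JUN and EGR families, whose messages are made and destroyed within a short time.

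Each value is a signal, the reads of a region divided by a size factor of its library. The G1 library holds 5389666 reads, that of G1/S 3205025 and that of S 2502792, so 1 read is worth a signal of 0.690, 1.66 and 1.71. A count of 0 allows a signal of up to 2.07, 4.99 and 5.13 (3 reads), and 110, 292 and 363 regions of the 3 libraries, in that order, had no read. The 9 measured of 10 definitive endoderm markers summed to 12038, 21817 and 9286 along the course, against 505 to 666 in hESCs. Markers of other types were present too. The 4 measured pluripotent markers (POU5F1, SOX2, DNMT3B and UTF1) summed to 870.0, 1544 and 1082, against 2759 to 4087 in hESCs. NES and PAX6 of neuroectoderm summed to 4937, 11110 and 9327, almost all of it NES, against 5889 to 8962 in hESCs. The stromal markers COL1A1, THY1 and PDGFRB summed to 1780, 2371 and 3343, against 5062 to 9037 in hESCs. The mesoderm markers KDR and TBX6 (28.3 to 44.2) and the trophoblast marker TFAP2C (3.42 to 11.6) were low, and HHEX, NANOG, T, MESP1, HAND1, SOX1, ZIC1, CDX2, CGA, ELF5, COL3A1 and LUM are not among the region names. In such bulk samples, fewer cells of a type and less RNA per cell cannot be told apart.

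The question was in which order the 3 libraries stood for each region, and whether that order was alike in strongly and weakly expressed regions. On log2(signal + 1), 7640 regions (52%) had a highest and a lowest library at least 2-fold apart. Among them G1/S was lowest in 3402 (44.5%), which is called the trough order here, and highest in 2585 (33.8%), the peak order. Another 718 regions (9.40%) stood in the rising order from G1 through G1/S to S and 876 (11.5%) in the falling order, and 59 had tied libraries. Of the 6 possible orders of 3 libraries, 2 are peaks, 2 are troughs, 1 is rising and 1 is falling, so unequal counts are no sign of a course by themselves. By single steps, 14.9% of regions were at least 2-fold higher and 21.7% at least 2-fold lower in G1/S than in G1. From G1/S to S the shares were 16.7% higher and 11.8% lower, and from G1 to S 10.5% higher and 12.6% lower.

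With the deposited values, strong and weak regions differed in order. The regions were placed in 4 equal bins by mean signal. In the weakest bin (mean signal up to 14.7, with medians of 11, 4 and 4 reads) 69.4% of regions had a range of at least 2-fold, and 36.4% of these were peaks and 35.5% troughs. In the next bins troughs made up 53.3% and 57.1% of such regions, and peaks 25.5% and 26.1%. In the strongest bin (mean signal from 159, with medians of 580.0, 300.0 and 255 reads) 29.5% had that range, and 57.8% of these were peaks and 27.1% troughs. The median difference between G1/S and G1 was accordingly -0.04, -0.37, -0.19 and 0.39 on the log2 scale from the weakest to the strongest bin. Above a mean of 1000 signal units, 80.1% of the regions with such a range were peaks.

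**Figure D1:**
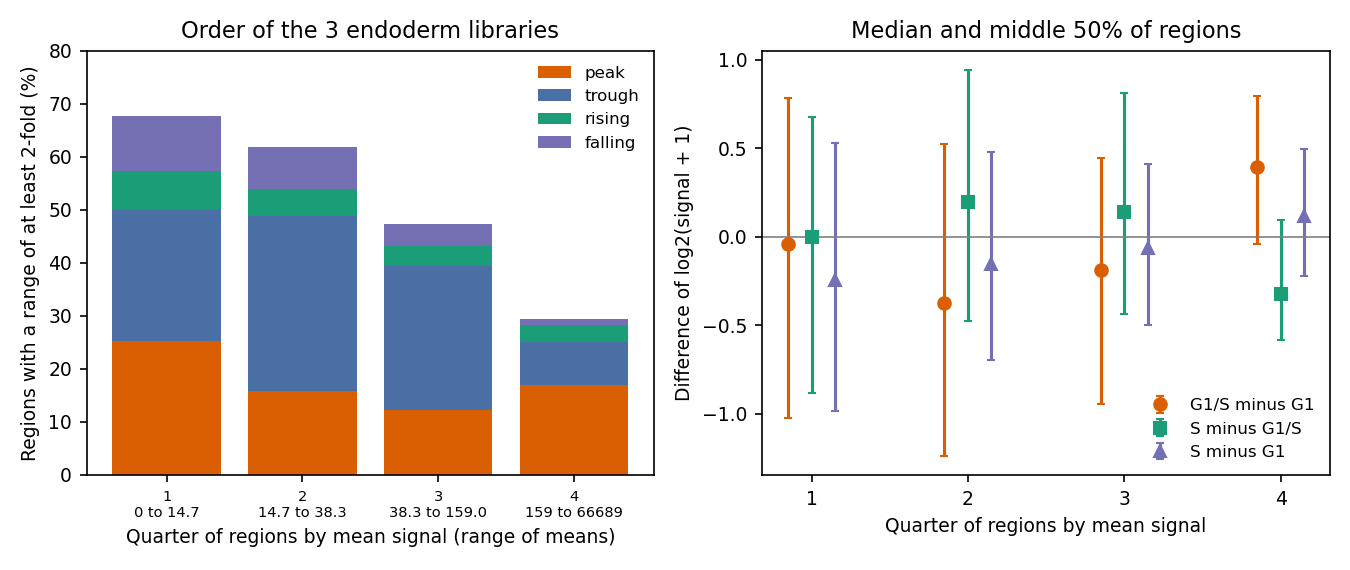
Left, the share of regions in each bin by mean signal whose 3 endoderm libraries span at least 2-fold, split by the order of the libraries (tied regions are left out). Right, the median (point) and the middle 50% of regions (bar) of each step in log2 units. Peaks make up 57.8% and troughs 27.1% of these regions in the strongest bin, and G1/S minus G1 has its highest median, 0.39, there.

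The counting error decides what the weak regions can show. Where a region was at least 2-fold apart between G1/S and G1, the 95% counting interval of the ratio excluded 1 in 46.8% of cases in the weakest bin, 93.6% and 99.9% in the next bins and 100% in the strongest. For S against G1/S the same shares were 15.4%, 70.9%, 99.7% and 100%. An interval lying wholly beyond 2-fold was rarer: 4.78% of regions were higher and 5.15% lower in G1/S than in G1, 3.04% higher and 0.838% lower in S than in G1/S, and 2.8% higher and 1.12% lower in S than in G1. These intervals cover the counting of reads in single libraries and no variation between cultures.

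The order in strong regions depended on how the libraries were scaled. The deposited values set few strong regions low in G1/S, but when reads were divided by the library total the median of all regions shifted to -0.47 for G1/S minus G1, 0.23 for S minus G1/S and -0.24 for S minus G1. In the strongest bin troughs then made up 60.1% and peaks 18.2%. With the median of strong regions set to 0 the shares were 48.4% and 28.6%, and after quantile normalisation 42.5% and 29.2%, so the excess of peaks turned into an excess of troughs under these 3 scalings. Of the regions called between G1/S and G1, 40.7% were higher in G1/S with the deposited values, 16.9% by the library total, 23.0% with strong regions centred and 49.6% after quantile normalisation. The same shares were 58.6%, 76.7%, 75.1% and 52.1% for S against G1/S and 45.5%, 30.3%, 37.9% and 51.9% for S against G1. Among regions with a mean of at least 100 they were 62.5%, 63.9% and 75.1% for the 3 steps. The 60 leading steps, not all of which are named below, are the largest in each direction. They stayed at least 2-fold, on the same side, under each of these scalings and in all 657 values computed under 11 other settings. Some of these settings filter regions and cannot change a gene's own value. The steps were chosen for their size, so this is no support for them.

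Base composition moved with the G1/S library. GC content was known for the last 500 bases of the longest transcript of 9135 gene names, which were placed in 4 bins of GC content. From the GC-poorest to the GC-richest bin of genes the median of G1/S minus G1 was -0.59, -0.48, 0.10 and 0.64, and that of S minus G1/S was 0.28, 0.30, -0.11 and -0.49. Among genes with a mean of at least 100 the 4 medians of G1/S minus G1 were -0.26, -0.07, 0.26 and 0.68, so the gradient was present in strong genes as well. Spearman's rho between GC content and the step was 0.47 for G1/S minus G1, -0.37 for S minus G1/S and 0.20 for S minus G1, across genes that share their libraries. GC-rich genes were also the stronger ones, with a median mean signal of 253 in the richest bin and 31.4 in the poorest. In hESCs rho was 0.34, -0.45 and -0.10. The part of base composition in the order of the libraries was not tested, and differences centred within 20 GC bins are given below where they bear on a result.

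**Figure D2:**
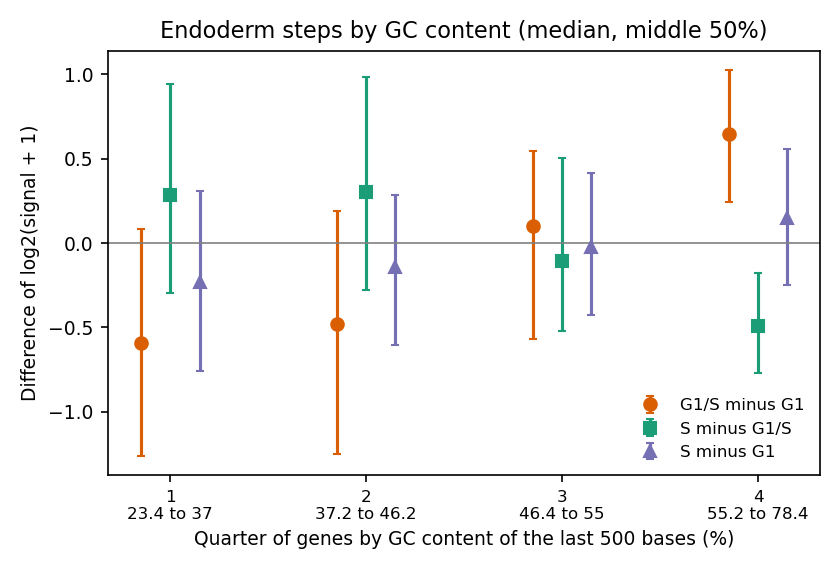
Median (point) and middle 50% (bar) of the 3 endoderm steps in bins of genes by GC content of the last 500 transcript bases, on the log2(signal + 1) scale. The G1/S minus G1 medians run from -0.59 in the GC-poorest bin to 0.64 in the richest, and the S minus G1/S medians run the other way.

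The immediate early genes differed in course, some being high in G1/S and some low in it. FOSB, a partner of JUN in the AP-1 transcription factor, stood at 17.3 in G1, at 1113 in G1/S, then at 58.2 in S (25, 669 and 34 reads), the largest step from G1 to G1/S among genes with a mean of at least 100, 64.5-fold (95% counting interval 43.3 to 100.4). NAB2, a corepressor that binds EGR proteins and is itself induced by them, stood at 144, 1199 and 267. ARC, an immediate early gene best known from neurons, stood at 32.5, 313 and 77.0. All 3 were far higher in G1/S than in the libraries on either side. EGR1, a zinc finger factor, was highest in G1 at 87.7, 16.6 and 11.98 (127, 10 and 7 reads). It was 5.27-fold lower in G1/S than in G1 (2.77 to 11.3), and its order between G1/S and S rests on few reads. FOSL1, another AP-1 member, stood at 494, 2098 and 1446, and JUN at 768, 1727 and 1304. SRF, the factor that drives many immediate early and actin genes, was highest in S (571, 689 and 892), and IER3, an inhibitor of apoptosis, was the most abundant member at 14584, 20461 and 13611.

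Of the 27 measured immediate early genes, 9 (33.3%) were at least 2-fold higher in G1/S than in G1 and 4 (14.8%) at least 2-fold lower, against 12% and 21.4% of 9588 gene names. Their median step was 0.02, and it was -0.49 by the library total, so no common direction can be given. Between S and G1, 6 were higher and 3 lower (7.88% and 10.7% of gene names), with a median of 0.40 that stayed above 0 in all 11 other settings (0.20 to 0.64). Among these settings, a 4-fold call and a counting interval that excludes 1 change only the counts, so they cannot move any list median. FOS (32.5, 9.98 and 6.85) was highest in G1 like EGR1, on few reads in G1/S and S. JUNB (69.0, 268 and 154) and ZFP36 (14.5, 81.5 and 32.5) stood with FOSB. These genes were chosen after their values were seen, so they are no support for differing courses. Of the 12 MAP kinase feedback genes, which switch off the pathway that induces this wave, 3 were higher and 0 lower in G1/S than in G1, against 12% and 21.4% of gene names. DUSP8, a phosphatase, stood at 167, 516 and 219, and SPRY1, an inhibitor of growth factor signalling, at 34.5, 161 and 108.

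The promoters of 4 of these genes are shown because EGR1 and SRF hold CArG boxes, the motif bound by SRF, and FOSB and JUN hold none in this window, while all 4 hold TGACG, the core of the cyclic AMP response element. The sequences are those of RefSeq on GRCh38.p14, from 250 bases before to 50 bases after the start of the transcript, read in the direction of transcription: FOSB (chr19:45467746-45468045, plus strand), JUN (chr1:58783998-58784297, minus strand), EGR1 (chr5:138465229-138465528, plus strand) and SRF (chr6:43171019-43171318, plus strand). Capitals mark matches on either strand to a CArG box (CC, 6 bases of A or T, GG), TGACG, or to TATAAA, or to the motif TTTGAA, or to ATTGG.
FOSB: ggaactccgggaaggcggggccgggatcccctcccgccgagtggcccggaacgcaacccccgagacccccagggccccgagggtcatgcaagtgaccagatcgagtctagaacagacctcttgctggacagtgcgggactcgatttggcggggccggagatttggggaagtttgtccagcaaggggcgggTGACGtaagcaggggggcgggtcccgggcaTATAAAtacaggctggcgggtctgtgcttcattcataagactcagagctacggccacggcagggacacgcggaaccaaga
JUN: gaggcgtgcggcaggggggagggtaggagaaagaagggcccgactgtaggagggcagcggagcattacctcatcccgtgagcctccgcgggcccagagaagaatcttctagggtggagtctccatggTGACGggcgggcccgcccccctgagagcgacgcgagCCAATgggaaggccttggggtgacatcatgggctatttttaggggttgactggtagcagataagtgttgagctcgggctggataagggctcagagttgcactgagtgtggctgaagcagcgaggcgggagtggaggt
EGR1: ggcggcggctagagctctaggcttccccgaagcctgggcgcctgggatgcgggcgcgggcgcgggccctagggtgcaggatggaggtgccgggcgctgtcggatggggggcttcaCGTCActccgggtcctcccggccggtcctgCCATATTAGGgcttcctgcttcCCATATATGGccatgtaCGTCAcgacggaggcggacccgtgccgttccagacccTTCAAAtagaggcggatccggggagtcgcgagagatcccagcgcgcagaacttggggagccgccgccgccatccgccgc
SRF: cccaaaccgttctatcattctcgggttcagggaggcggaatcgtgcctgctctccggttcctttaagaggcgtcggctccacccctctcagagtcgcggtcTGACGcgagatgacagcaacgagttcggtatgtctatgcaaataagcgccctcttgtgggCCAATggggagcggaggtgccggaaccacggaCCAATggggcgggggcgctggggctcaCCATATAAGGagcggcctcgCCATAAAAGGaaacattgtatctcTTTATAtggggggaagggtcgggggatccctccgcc
EGR1 holds CArG boxes that begin at positions -105 and -83 from the start, and SRF at -30 and -10. TGACG begins at -135 and -66 in EGR1 (other strand), at -149 in SRF, at -60 in FOSB and at -123 in JUN. FOSB has TATAAA at -30, and JUN has ATTGG on the other strand at -87. Of 27305 promoters of this length in the table, 1.29% hold a CArG box, 25.0% TGACG, and 11.95% the TATAAA box, while the share was 15.4% for TTTGAA and 35.7% for ATTGG. Of the 20 immediate early genes with a promoter in the table, 2 hold a CArG box, 11 TGACG and 5 TATAAA. The motif TGACG was held by 36.2% of the 484 strong genes of the peak order, 36.4% of the 341 of the trough order and 35.6% of all 3303 strong genes, so its share was near that background. CArG boxes were in 0.620% of the peak genes and 1.76% of the trough genes, against 1.15% of all strong genes. A search for TGACGTCA found no match in these 4 windows, and neither did one for the AP-1 motif TGANTCA. The E2F motif was searched as TTTGGCGC, and a further form of it as TTTCGCGC, also without a match in them.

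Among the strong genes of the peak order, those with the largest smaller step were FOSB, HIC1, LHX1, NAB2, SERTAD1, ARC, HDAC10 and LFNG. HIC1, a transcriptional repressor that is often silenced in tumours, stood at 6.90, 256 and 54.8 (10, 154 and 32 reads). LHX1, a homeobox factor of the anterior endoderm and organizer, stood at 661, 4587 and 1006 (957, 2757 and 588 reads), a ratio of 6.94 (6.45 to 7.48) from G1 to G1/S. SERTAD1, which binds CDK4 and E2F proteins, stood at 289, 1657 and 383, and LFNG, a glycosyltransferase that modifies Notch receptors, at 104, 655 and 176. In each of these genes the G1/S value lay above both neighbours by more than the counting error. They were chosen for large steps on both sides, so this is no support. LHX1 has a GC content of 29.8%, so its peak runs against the GC gradient, and its difference was 2.79 as deposited and 3.35 centred within GC bins. HDAC10 (104, 411 and 108), a histone deacetylase with 68.2% GC, had a difference of 1.98 as deposited and 1.07 centred. The remaining leaders of the step from G1 to G1/S were TRIM54, AMH, IER5L, PPAN-P2RY11, C17orf46 and BC087859, with differences between 2.93 and 3.73.

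Genes of the trough order were led by DSTN, an actin-depolymerising protein, at 866 in G1, at 171 in G1/S, then at 2350.1 in S (1254, 103 and 1373 reads). SEPT11, a septin of the cytoskeleton, stood at 359.7, 68.2 and 479, and PABPC1, the poly(A)-binding protein of the cytoplasm, at 1873, 279 and 1224. SRPK1, a kinase of splicing factors, stood at 106, 23.3 and 234, and GALNT1, which starts O-linked glycosylation, at 123, 28.3 and 264. PPIG, a nuclear cyclophilin, stood at 262, 54.9 and 233. C15orf60 (182, 26.6 and 202) and RPS27L (729.8, 129.8 and 548), a ribosomal protein paralogue induced by p53, complete the group. In all 8 genes both neighbours stood at least 2-fold above G1/S, but they were chosen for large steps on both sides. PABPC1 and RPS27L have near-identical copies in the genome, between which reads could have been divided, so their levels are uncertain. The 10 strong genes that were lowest in G1/S relative to G1 had a median GC content of 37.9%, against 58.0% for the 10 that were highest. All 10 of the former, and the 9 of the latter with a GC value, stayed at least 2-fold when centred within GC bins.

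The rising order held 160 strong regions, beside 724 peaks and 513 troughs. EFNB2, an ephrin of arterial vessels and boundaries between tissues, stood at 314, 592 and 1386, a ratio of 4.41 (3.93 to 4.96) from G1 to S. EDN1, the precursor of the vasoconstrictor endothelin, stood at 253, 418 and 789. ST3GAL1, a sialyltransferase, stood at 76.0, 173 and 394. In each of the 3 the values were higher at both steps, as the order they were chosen from requires. INHBA, which encodes the activin A subunit itself, stood at 56.6, 145 and 243. TSC22D3, a glucocorticoid-induced leucine zipper protein, stood at 231, 444 and 746, and VGF, a secreted neuropeptide precursor induced by growth factors, at 206, 346 and 664. EFNB2, INHBA and EDN1 are GC-poor (28.6% to 32.0%) and VGF is GC-rich (66.2%). VGF left the rising order when centred within GC bins, with -0.16 for G1/S minus G1.

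The falling order held 82 strong regions. C20orf54, a riboflavin transporter, stood at 165, 99.8 and 37.7 (239, 60 and 22 reads), WHSC1, a histone H3 methyltransferase, at 350.1, 188 and 108, and MYPOP, a repressor of MYB type, at 224, 121 and 56.5. ITGB1BP2, a muscle protein that binds integrin, stood at 594, 383 and 216, and MRPS6, a protein of the mitochondrial ribosome, at 671, 388 and 246. In each of these genes S was the lowest library, as the falling order requires.

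**Figure D3:**
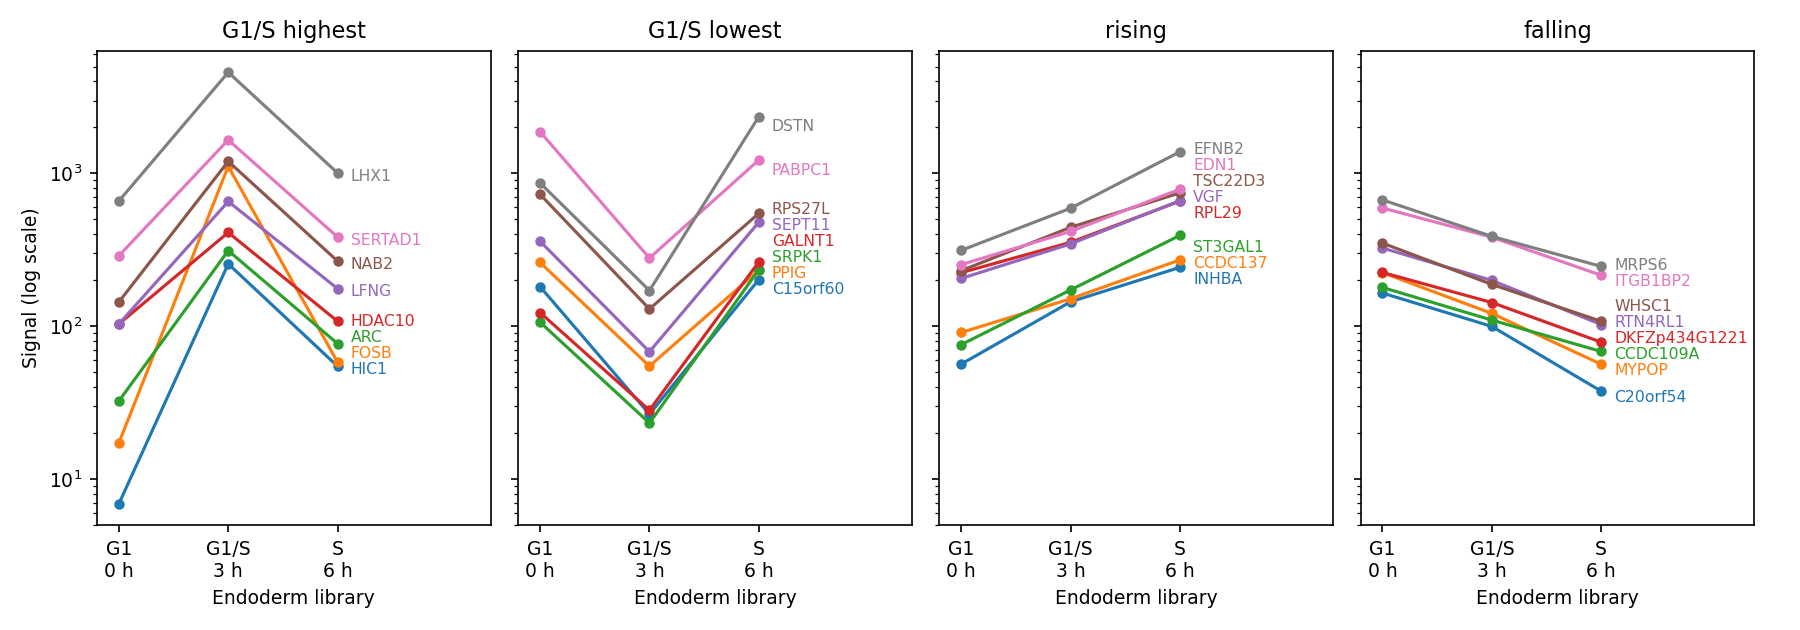
Signal (log scale) in the G1, G1/S and S libraries of endoderm for the 8 strong genes (mean of at least 100) with the largest smaller step in each order. Each line is 1 gene and each point 1 library, with no replicates. The peak and trough genes turn at G1/S, as FOSB does at 17.3, 1113 and 58.2.

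The nodal pathway and the endoderm regulators differed in course. LEFTY1, a secreted nodal inhibitor and direct target of the pathway, stood at 1344, 275 and 308 (1947, 165 and 180 reads), 4.36-fold lower in S than in G1 (3.74 to 5.11), the largest difference in that direction among strong genes. Its neighbour LEFTY2, with a closely similar sequence, stood at 17242, 13139.5 and 7252, and FST, which binds and blocks activin, at 4349, 2422 and 1789. CER1, another secreted nodal antagonist, stood at 2484, 1989.7 and 1578. All 4 of these inhibitors of nodal or activin were lower in S than in G1, and LEFTY1 and FST had their larger difference at the first step. NODAL, the ligand, was highest in G1/S at 1039, 2231 and 1116. GDF3, a related ligand, was lowest there at 220.3, 53.2 and 109.5. PMEPA1, a feedback inhibitor of SMAD signalling, stood at 1303, 3529 and 2109. Of the 32 measured pathway genes, 5 were higher and 5 lower in G1/S than in G1 (12% and 21.4% of gene names), and 3 were higher and 6 lower in S than in G1 (7.88% and 10.7%).

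MIXL1, EOMES and GSC, transcription factors of the primitive streak, were highest in G1/S and lowest in S. MIXL1 stood at 684, 1437 and 265 (991, 864 and 155 reads), EOMES at 5269.6, 8989 and 3669.8, and GSC at 2234, 5257 and 1951. MIXL1 was 5.42-fold lower in S than in G1/S (4.56 to 6.47). SOX18, a SOX factor of endothelium close to SOX17, stood at 211, 659 and 83.9, and the growth factor FGF8 at 222, 413 and 92.4. The abundant growth factor FGF17 stood at 15276, 20152 and 9856. Other endoderm genes had other courses, among them LHX1, given above, which was lowest in G1. CXCR4, a chemokine receptor and definitive endoderm marker, was lowest in G1/S (732, 316 and 525), as were SOX17 (200.2, 111 and 154) and FOXA2 (92.5, 53.2 and 111). GATA4 (149.8, 229.6 and 161) and GATA6 (215, 284 and 128) were highest there.

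Of the 29 measured definitive endoderm genes, 1 was at least 2-fold higher and 7 (24.1%) at least 2-fold lower in S than in G1, against 7.88% and 10.7% of gene names, with a median of -0.48 that stayed between -0.68 and -0.33 in the 11 other settings. For S minus G1/S, 4 were higher and 8 (27.6%) lower (15.8% and 9.11% of gene names), with a median of -0.51 (-0.55 to -0.20 in the other settings). For G1/S minus G1, 6 were higher and 9 lower (12% and 21.4% of gene names), and the median of 0.10 changed sign by the library total (-0.41). The later endoderm and hepatic genes were few: of 7 measured, 3 were higher and 0 lower in G1/S than in G1, against 12% and 21.4% of gene names. APOE, an apolipoprotein, stood at 23178, 53389.8 and 26753, APOA1 at 1748, 5202 and 2754, and CEBPA, a liver regulator, at 41.4, 176 and 106. Their median of 0.61 stayed above 0 in the 11 other settings (0.10 to 0.91), and it is near that of all regions with a mean above 1000 (0.63) and of strong genes in the GC-richest bin (0.68). EPCAM, an epithelial adhesion protein of stem cells and endoderm, stood at 217, 81.5 and 73.6.

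**Figure D4:**
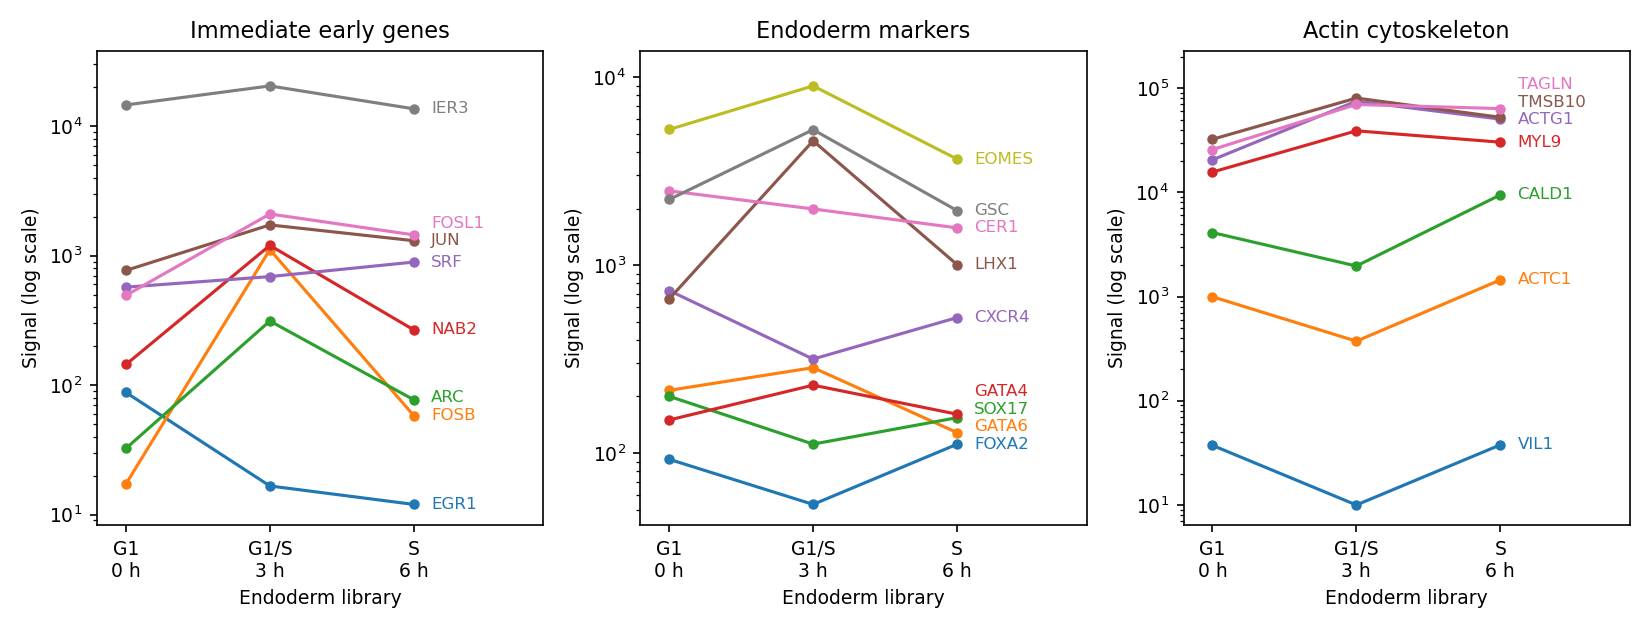
Signal (log scale) in the 3 endoderm libraries for the immediate early genes named by level or range (left), the 9 measured definitive endoderm markers (middle) and the actin cytoskeleton genes named by level or range (right). Each point is 1 library. FOSB, NAB2, ARC and LHX1 peak in G1/S, EGR1 is lowest in S, and CALD1, ACTC1 and VIL1 are lowest in G1/S.

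The pluripotency genes that the cells still made were not uniformly low. SOX2 stood at 342, 843 and 486, POU5F1 at 255, 293 and 312, and UTF1 at 107, 281 and 159. DPPA4 (279.6, 103 and 354) was lowest in G1/S, as was PODXL, a surface sialomucin, at 1694, 517 and 1280.3. Of 22 measured members 5 were higher and 8 (36.4%) lower in G1/S than in G1, and 7 (31.8%) were higher and 0 lower in S than in G1/S. Over all gene names these shares were 12% and 21.4%, then 15.8% and 9.11%. Both medians, -0.49 and 0.34, kept their sign in the 11 other settings. The pluripotency list's median GC content is 39.6%, and centring within GC bins left medians of -0.30 and 0.29. Of 23 Wnt pathway genes, 2 were higher and 7 (30.4%) lower in G1/S than in G1, against 12% and 21.4% of gene names (median -0.44, from -0.95 to -0.31 in the other settings). The Wnt list's median GC content is 39.2%, and of genes with 37.2% to 46.2% GC 32.6% were lower in G1/S than in G1. Its median was -0.48 when centred within GC bins. SFRP1, a secreted Wnt inhibitor, stood at 1636, 396 and 1131, and WNT3, a ligand of the primitive streak, at 23.5, 6.65 and 30.8. The WNT3 value in G1/S is near the signal of 3 reads there, 4.99.

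Genes of DNA replication were more often lower than higher in the G1/S library. Of the 54 measured genes of the G1/S transition and DNA replication, 2 were at least 2-fold higher and 24 (44.4%) at least 2-fold lower in G1/S than in G1, against 12% and 21.4% of gene names. Their median was -0.63, and it stayed between -1.14 and -0.13 in the 11 other settings. Some of the most abundant members were highest in G1/S. MCM7 and MCM5, subunits of the replicative helicase, stood at 2938, 4956 and 3114 and at 1801, 3247 and 2223, and CDT1, which loads that helicase, at 1224, 2196 and 1303. Others were lower there. RRM1, the large subunit of ribonucleotide reductase, stood at 47.0, 1.66 and 20.5 (68, 1 and 12 reads), and RPA2, which coats single-stranded DNA, at 97.4, 19.96 and 82.2. MSH6, a mismatch repair protein, was in the falling order at 54.5, 21.6 and 5.13, the last being the signal of 3 reads. The 23 members with a mean of at least 100 had a median of -0.13, with 2 higher and 7 lower, against 14.4% and 8.62% of regions of that level. From G1 to S, 2 members of the whole list were higher and 11 lower, against 7.88% and 10.7% of gene names (median -0.44). PCNA, the sliding clamp, chosen after its values were seen, stood at 69.0, 19.96 and 17.1. The median GC content of the list is 39%, against 46.2% over all gene names, and centring within GC bins left a median of -0.46 for G1/S minus G1.

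Of 38 measured mitotic genes, 16 were troughs with a range of at least 2-fold and 1 was such a peak. Of all 9588 gene names, 2195 were such troughs and 1386 such peaks, and of all regions 23.2% and 17.6%. Of the 38, 2 were higher and 14 (36.8%) lower in G1/S than in G1, and 12 (31.6%) were higher and 3 lower in S than in G1/S. Over all gene names these shares were 12% and 21.4%, then 15.8% and 9.11%. The list's median GC content is 41%. In the bin of genes with 37.2% to 46.2% GC, 32.6% were lower at the first step and 24.6% higher at the second. Centring within GC bins left list medians of -0.30 for G1/S minus G1 and 0.30 for S minus G1/S. TOP2A, the topoisomerase that untangles replicated chromosomes, stood at 499, 126 and 710.3, and CENPF, a kinetochore protein, at 78.7, 18.3 and 85.6. NUSAP1, a spindle protein, stood at 64.9, 9.98 and 39.4. Stronger members differed: CDC20, an activator of the anaphase-promoting complex, stood at 791, 1622 and 1378, and FOXM1, the transcription factor of mitotic genes, at 1254, 2013 and 1534. The list's median for G1/S minus G1 was -0.76 over all members and 0.31 over the 12 with a mean of at least 100, so its sign depended on the level. The median for S minus G1/S, 0.51, stayed above 0 in the 11 other settings (0.07 to 0.81).

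Among 24 regulators of G1, 2 were higher and 5 lower in G1/S than in G1, against 12% and 21.4% of gene names. From G1/S to S, 9 (37.5%) were higher and 3 lower, against 15.8% and 9.11% of gene names. CCND1, the cyclin of early G1, was the most abundant at 2437, 5726 and 5280.5, and CDK2, the kinase partner of cyclins E and A, stood at 657, 1750.2 and 1212. CDK4, the partner of cyclin D1, was lowest in G1/S at 154, 43.3 and 195. CDKN2A, an inhibitor of CDK4, stood at 133, 116 and 361, and CDKN1C, an inhibitor of cyclin E and A kinases, at 967, 702 and 520.3. E2F1 stood at 428, 685 and 414. Of 10 measured histone genes 3 were higher and 1 lower in S than in G1/S, against 15.8% and 9.11% of gene names. HIST1H4C, a replication-dependent histone whose message normally lacks a poly(A) tail, stood at 26.2, 13.3 and 187 (38, 8 and 109 reads), and H2AFX, whose protein marks DNA breaks, at 42.8, 43.3 and 205. Both were highest in S, 7.11-fold (4.87 to 10.6) and 4.80-fold (3.50 to 6.63) above G1. Of 25 p53 targets 2 were higher and 7 (28.0%) lower in G1/S than in G1, near the 21.4% of gene names that were lower, among them SESN1, a stress sensor (60.8, 4.99 and 47.9), and XPC, which detects DNA damage (275, 81.5 and 229). The SESN1 value in G1/S is the signal of 3 reads. SESN2, a paralogue of SESN1, stood at 491, 1339 and 1046. The p53 list's median of -0.71 stayed below 0 in the 11 other settings (-1.21 to -0.23), and its median GC content is 40%.

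Genes of the actin cytoskeleton were more often higher than lower in S relative to G1. Of 37 measured genes that respond to serum or build actin filaments, 10 (27.0%) were at least 2-fold higher and 1 lower (7.88% and 10.7% of gene names), with a median of 0.64 that stayed between 0.44 and 0.69 in the 11 other settings. The list is of strong genes, with a median signal of 2115. Of all regions with a mean above 1000, 10.2% were higher and 0.336% lower in S than in G1, with a median of 0.21. TAGLN, an actin-binding protein of smooth muscle, stood at 25756, 69770.1 and 63657. TMSB10, which sequesters actin monomers, stood at 32313, 80364 and 52524, and MYL9, a myosin light chain, at 15665, 38954 and 30320.4. CALD1, caldesmon, was lowest in G1/S at 4111, 1963 and 9447. The region deposited under the name ACTG1 stood at 20519, 75054 and 50458, but it lies on chromosome 7, while RefSeq places ACTG1 on chromosome 17. The region deposited as ACTG1 on chromosome 17 stood at 4813, 3259 and 3630.4. It was the only gene described here whose region disagreed with the RefSeq chromosome, and 12 of 9857 named regions (0.122%) did so in all. Its actin family members share much sequence, so the value on chromosome 7 is uncertain as a measure of ACTG1.

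Among strong genes, the 10 that were highest in S relative to G1 had differing roles. LIMS1, an adaptor at integrin adhesions, stood at 80.8, 76.5 and 503 (117, 46 and 294 reads). EMP3, a membrane protein of mesenchymal cells, stood at 183, 959.9 and 999.6. NEFM, a neurofilament subunit, stood at 99.4, 89.8 and 568. LIMS1 and NEFM were high in S alone, and EMP3 was high in both G1/S and S. TRIM54, a muscle protein that binds microtubules, had the largest difference among named genes with a mean of at least 100, at 9.67, 126 and 175 (14, 76 and 102 reads). DIO2, the enzyme that activates thyroid hormone, stood at 42.8, 186 and 270.4, and HNRNPM, a splicing factor, at 222, 251 and 1325. C6orf223 and SPOCD1 completed the 10 leaders with HIC1 and BC087859. At the other end, PSMA2 (179.5, 74.9 and 53.1), RTN4RL1 (325, 199.6 and 103) and RPL36AL were lower in S with LEFTY1, EPCAM, C20orf54, MYPOP, WHSC1, NACAD and DKFZp434G1221. For all 20 genes the counting interval lay wholly beyond 2-fold, but they were chosen for their large differences, so this is no support.

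Markers of other germ layers differed between the phases as well. The 7 measured mesoderm genes had a median of 1.16 for S minus G1 (0.95 to 1.43 in the other settings), with 4 higher and 1 lower. Over all gene names 7.88% were higher and 10.7% lower in S than in G1, and 12% and 21.4% in G1/S than in G1. The mesoderm markers KDR and TBX6 went the other way in sum, at 44.2, 28.3 and 29.1 along the course. SNAI1, a repressor of E-cadherin, stood at 66.3, 419 and 149, NKX2-5, a cardiac factor, at 142, 739 and 378, TNNT2, cardiac troponin T, at 67.0, 253 and 185, and TWIST1, a mesenchymal factor, at 72.5, 111 and 264. Of 12 stromal genes 2 were higher and 0 lower in S than in G1 (median 0.47, from 0.27 to 0.51): COL1A1, a collagen chain, stood at 565, 742 and 1210.2, and THY1, a surface protein of fibroblasts, at 1189.7, 1615 and 2089.9. VIM, the filament protein of mesenchymal cells, stood at 3273, 2956 and 4106. Of 7 neuroectoderm genes 3 were higher in G1/S than in G1 and 0 lower, with NES at 4854, 10962 and 9188 and SOX3 at 76.6, 191 and 282. Of 5 trophoblast and extraembryonic genes 1 was higher and 1 lower, and SPARC, a matrix protein of parietal endoderm, stood at 3079, 1189.5 and 3011. Of 23 epithelial genes 2 were higher and 4 lower in that step, and CLDN6, a tight junction protein of embryonic epithelia, stood at 3355, 12213 and 11473. The stromal and cytoskeletal lists both hold TAGLN, and the part of a changing cell mixture in these values was not tested.

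The next lists are of housekeeping complexes, and are read against 12% of gene names higher and 21.4% lower in G1/S than in G1. Of 70 nuclear genes of the respiratory chain, 5 were higher and 28 (40.0%) lower in G1/S than in G1, with a median of -0.44 over all. The 48 with a mean of at least 100 had a median of 0.34, with 5 higher and 12 lower, against 14.4% and 8.62% of regions of that level. ATP5L, a subunit of ATP synthase, stood at 938, 179.7 and 584, and NDUFS7, of complex I, at 253, 1078 and 644, with GC contents of 32.4% and 70.2%. Of 37 proteasome genes, 0 were higher and 11 (29.7%) lower, with a median of -0.27 over all and 0.12 over the 22 strong ones. PSMA5 stood at 73.9, 13.3 and 54.8 and PSMD8 at 2995, 5345 and 3562. Of 40 splicing factors and hnRNPs, 2 were higher and 10 (25.0%) lower, near the background, with a median of -0.44 that became 0.10 when centred within GC bins. The list's median GC content is 36.9%, the part of which was not tested.

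Of 61 ribosomal protein genes, paralogues included, 7 were higher and 10 lower in G1/S than in G1, with a median of 0.01. RPL11 stood at 14814, 22235 and 14932. Among 39 translation factors and partners, 7 were higher and 10 lower. EEF2, the elongation factor that moves the ribosome, was the most abundant at 63139.6, 76962 and 59966, and NCL, nucleolin, was lowest in G1/S at 863, 275 and 1641. EIF5A, a factor needed for difficult peptide bonds, stood at 229.9, 311 and 972. Genes of both lists have near-identical copies, so their levels are uncertain. The median farthest from 0 in both lists was -0.31, that of the ribosomal proteins for S minus G1/S.

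Of 31 genes of the unfolded protein and amino acid response, 8 were higher and 7 lower in G1/S than in G1, against 12% and 21.4% of gene names. Between S and G1, 5 were higher and 2 lower, against 7.88% and 10.7% of gene names (median 0.25, from 0.05 to 0.51 in the other settings). PPP1R15A, a phosphatase subunit that restores translation, stood at 1047, 4512 and 3143, and TRIB3, a pseudokinase, at 552, 2326 and 2124. ATF4, the transcription factor upstream of both, was highest in G1 at 143, 34.9 and 35.9. Of 13 heat shock genes 0 were higher and 4 lower in G1/S than in G1, and 3 were higher and 1 lower in S than in G1/S. For the latter step 15.8% of gene names were higher and 9.11% lower. HSPA8, the constitutive member of the family, stood at 91.8, 34.9 and 265, a low level for a gene with many copies in the genome, and is uncertain. Of 24 hypoxia and glycolysis genes 3 were higher and 5 lower in G1/S than in G1, with ALDOA, an aldolase, at 4993, 12529 and 11496 and PFKM, a phosphofructokinase, at 82.9, 11.6 and 46.2. Of 22 genes of cholesterol synthesis 1 was higher and 4 lower, and 0 were 2-fold apart between S and G1, where the median was -0.25.

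**Figure D5:**
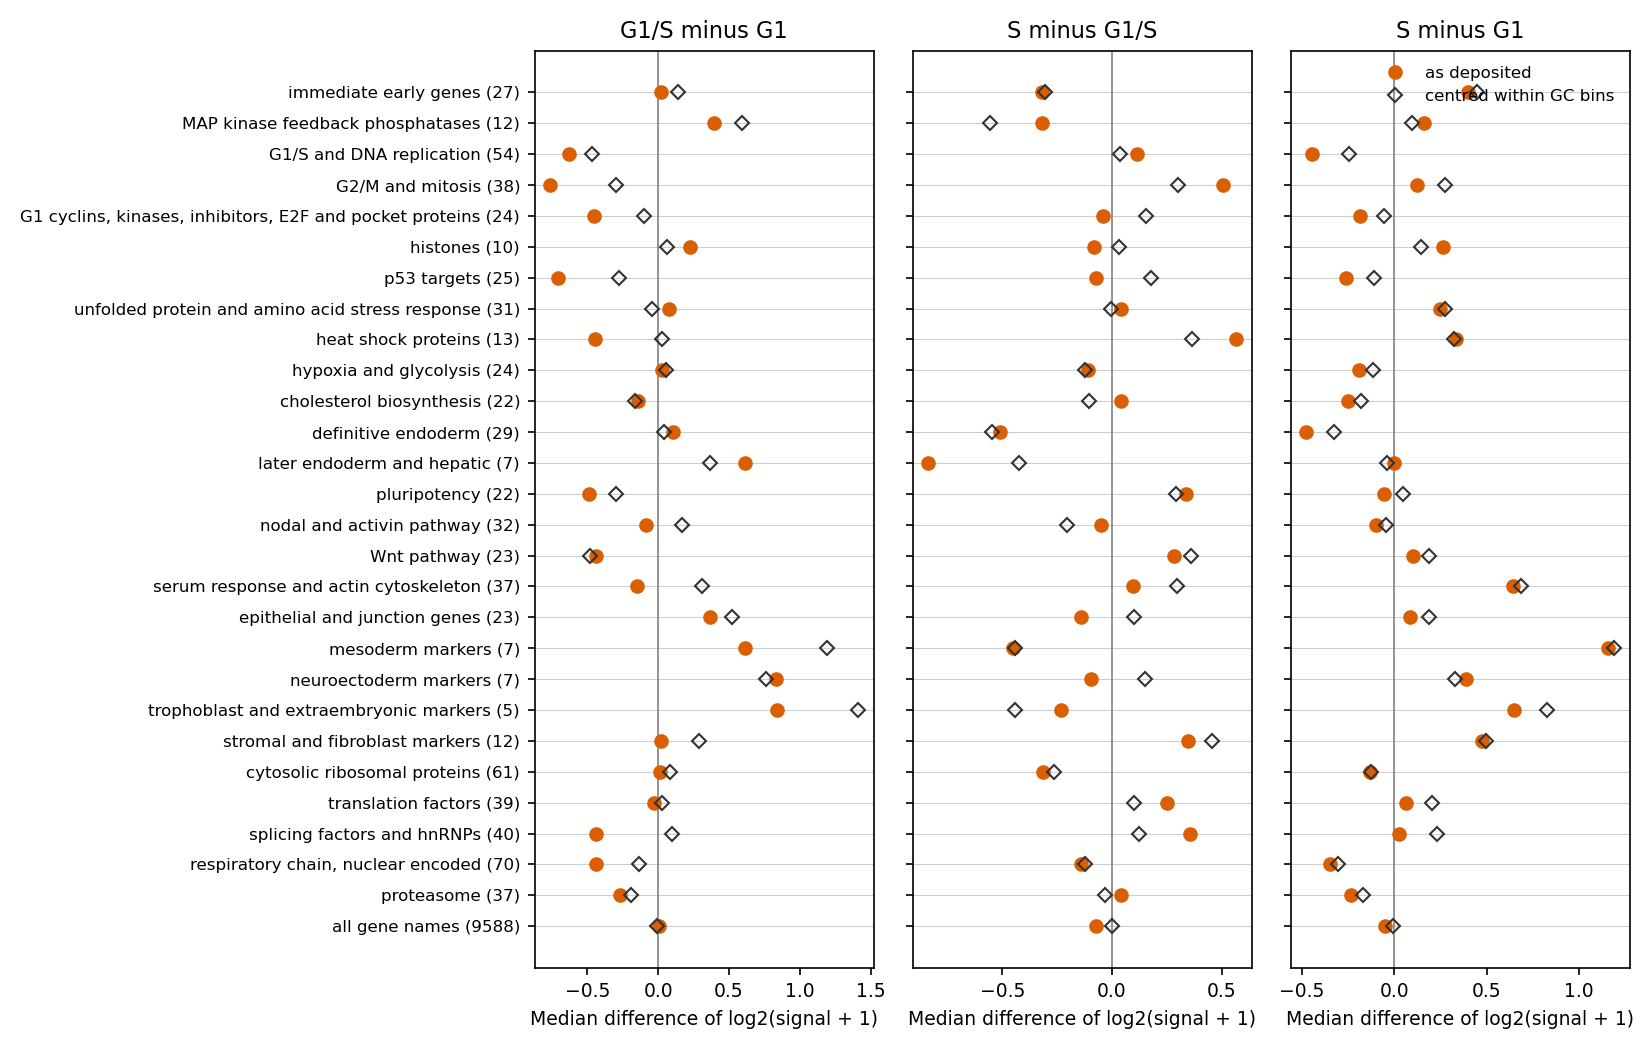
Median difference on the log2(signal + 1) scale of the measured members of each gene list (number in brackets) and of all gene names, for the 3 endoderm steps, with the values as deposited (filled circles) and centred within 20 GC bins (open diamonds). Splicing factors and heat shock genes lose their negative G1/S minus G1 median by the centring, while the DNA replication list (-0.46 centred) and the actin list in S minus G1 (0.69 centred) keep theirs.

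In the weakest bin the largest named steps rest on few reads. C9orf97, GPHN and TTC9C had 36, 36 and 37 reads in G1, 0 in G1/S and 5, 6 and 5 in S, and the 0 allows a signal of up to 4.99. KIF18B, a mitotic kinesin, had 34, 0 and 12 reads. MT1G, a metallothionein, had 0, 8 and 7, and PLA2G2A, a secreted phospholipase, 0, 5 and 1. The PLA2G2A values rest on 5 reads or fewer in every library, so no order is read from them. FKBP3, a nuclear immunophilin, had 27, 7 and 0 reads and PYY, a gut hormone, 2, 9 and 0.

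Regions without a gene name, 4318 in all, included some of the widest ranges. One on the mitochondrial chromosome stood at 801, 9945 and 686 (1160, 5978 and 401 reads). Another, on chromosome 2, stood at 11.05, 26.6 and 303, and 1 on chromosome 17 at 24.2, 361 and 46.2. The 5 mitochondrial regions together held 0.716%, 1.29% and 0.522% of the reads of the G1, G1/S and S libraries. Their 2 named regions were also highest in G1/S, at 19603, 45795 and 16049 and at 3070.5, 8794 and 2467, while the smallest of the unnamed ones was not (184, 176 and 260.2).

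Genes with 2 regions offer a look at whether a course belongs to the gene or to the region. DSTN has a second region on chromosome 20 at 109.8, 64.9 and 51.4, in the falling order and without the return in S of its main region. HNRNPM has a second region at 342, 293 and 291, which lacks the high S value of the first. CALD1 has a further region at 310.0, 203 and 187. Across 345 names with 2 regions of mean at least 20 on 1 chromosome, Pearson's r between the regions' steps was 0.26 for G1/S minus G1, 0.25 for S minus G1/S and 0.18 for S minus G1, as a description across genes that share their libraries. Of the 90 whose stronger region was 2-fold apart between G1/S and G1, the weaker one stood on the same side in 64, was 2-fold apart on that side in 32 and on the other side in 9. Over all regions with a mean of at least 20, 13.1% were 2-fold higher and 18.6% lower at this step. These counts cannot tell a gene's own course from a shift shared by a library. Positions within exons were not analysed here.

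The hESC course is given beside that of endoderm with the caution that its hours, 0, 2 and 3, differ. In the order of the phases, FOSB stood at 29.5, 247 and 43.7 in the hESC libraries, NAB2 at 142, 465 and 200.2, and ARC at 322, 732 and 385, all highest in G1/S. PABPC1 stood at 1813, 186 and 454, RPS27L at 971, 168 and 529.9, and TOP2A at 611, 67.7 and 222, all lowest in G1/S. EGR1 (75.7, 28.1 and 48.4) was highest in G1. LHX1 was low in hESCs at 132, 87.5 and 59.7, and EFNB2 stood at 314, 84.3 and 162, without the rising order. Over all regions Pearson's r between the steps of the cell types was 0.22 for G1/S minus G1, 0.31 for S minus G1/S and -0.10 for S minus G1 (n = 14686 regions, which share their libraries). After centring within GC bins the first 2 were 0.27 and 0.21. Of the regions 2-fold apart in endoderm between G1/S and G1, 25.9% were so on the same side in hESCs (30.5% of the hESC ones) and 11.1% on the other side. Of all 14686 regions, 4576 were 2-fold apart in hESCs at this step, on either side. For S against G1, 12.2% were on the same side (11.1% of the hESC ones) and 19.9% on the other, beside 3747 of all 14686 regions in hESCs.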

How the data were processed

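RNA of 6 libraries, 3 of them day 6 endoderm, was measured by sequencing of transcript 3' ends. The authors deposited 1 signal value per region and library. Tools listed per the submitters' processing notes, with no roles, are DESeq 1.5.24, Bowtie 0.12.7 and CASAVA 1.5, and the builds are NCBI36 and hg18. Each deposited signal was a whole number of reads times 1 constant per library (100% of values at a tolerance of 1e-06), and reads were recovered from it. A count test was not possible with 1 library per phase (0 residual degrees of freedom), so it called no genes. Differences are of log2(signal + 1), called at 1 (2-fold) or more. Ratios carry exact conditional binomial 95% intervals, computed on the reads, which cover counting error only. PCR copies are not independent molecules. GC content came from GENCODE 29 transcripts, not from the regions. A gene with several regions was represented by the region of highest mean. Named genes were, at a mean of at least 100, the 10 with the largest step in each direction and the 8 leaders of each order; the 4 highest and 4 widest-ranging members of each list; the 3 leading weak genes per direction; and the 5 highest and 5 widest unnamed regions. Of 28 gene lists 27 had measured members. The members and lists were chosen with earlier results of these data known. Python 3.11.15, pandas 2.3.3 and scipy 1.17.1 were used, and the scripts were tested on simulated data. Alternatives were other pseudocounts, minimum means, scalings, GC centring, a 4-fold call and the counting interval. Some genes that the rule names are not reported here.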

Additional observations from a re-analysis of the deposited data

Results flagged for a closer look

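In 10 of the leading genes the same-named step went the opposite way by at least 2-fold in hESCs. These differences between the cell types were not tested, each rests on 1 library per phase, and the hours differ (0, 2 and 3 in hESCs against 0, 3 and 6 in endoderm). C15orf60 and GPR37L1 were lower in G1/S than in G1 in endoderm and higher in hESCs, where the log2 differences were 1.49 and 1.27. DSTN, SRPK1 and SNRNP27 were higher in S than in G1/S in endoderm, and their hESC differences were -1.90, -1.07 and -1.49. LIMS1, HNRNPM, NEFM and EMP3 were higher in S than in G1 in endoderm, and their hESC differences were -2.15, -3.52, -1.81 and -1.44. LEFTY1 was lower in S than in G1 in endoderm (1344, 275 and 308), and in hESCs it stood at 2933, 281 and 9399, a difference of 1.68.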

How the results depend on the processing

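No paired analysis was possible because each phase has 1 library and the labels give no replicate numbers, and for the same reason no replicate could be left out. No leading step changed side. The excess of peaks over troughs in the strongest bin did, as the report gives, and so did some list medians for G1/S minus G1, such as that of definitive endoderm by the library total (-0.41) and that of mitotic genes at a mean of at least 100 (0.31). With reads per library total, 6.73% of regions were higher and 33.1% lower in G1/S than in G1, 7.09% were lower in S than in G1/S, 7.95% of regions were peaks, and 27 list medians reached 0.5 in size. With the median of strong regions set to 0, 8.74% were higher in G1/S than in G1, 7.55% lower in S than in G1/S, 10.1% were peaks and 25 list medians reached 0.5. At a mean of at least 100, 8.62% were lower in G1/S than in G1, 8.67% higher and 4.90% lower in S than in G1/S, 2.85% lower in S than in G1, 1.75% falling and 10.98% troughs. At a mean of at least 20, 6.91% were lower in S than in G1/S, 7.35% lower in S than in G1 and 3.79% falling. With a pseudocount of 5, 6.63% were lower in S than in G1/S and 7.95% lower in S than in G1. Where the counting interval had to exclude 1, the same shares were 5.76% and 8.31%. At a log2 difference of at least 2, 2.65% were higher and 6.19% lower in G1/S than in G1, 4.07% and 2.32% in S than in G1/S, and 1.63% and 2.49% in S than in G1, with 1.06% rising, 1.57% falling, 3.86% peaks and 7.41% troughs. Depth limits the weakest regions, with a median of 4 reads in G1/S and in S.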
